A study of Tribolium castaneum with 6 samples.

Results

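The genes described here code for proteins that bind chitin in the insect gut lining and in the cuticle. They were chosen by name alone, as the genes of the deposited tables whose name begins with Pmp and a digit, Cpap1, Cpap3, Cpr and a digit, Cp and a digit, or Obst. This rule found 27 of 15099 genes, of which 9 were peritrophic matrix protein genes (Pmp), 10 were Cpap1 genes, 7 were Cpap3 genes and 1 was a Cpr gene, CPR18. No gene name began with Obst or with Cp and a digit. The Pmp genes are called peritrophic and the other 18 cuticular.

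The 6 RNA-Seq libraries came from larvae of the red flour beetle Tribolium castaneum, strain Georgia-1, and compared RNA interference against the α subunit of AMP-activated protein kinase (AMPK), an energy sensor of the cell, with a control injection. The dsTcAMPKα group held 3 libraries from larvae injected at an age of 20 days with 200 ng of double-stranded RNA against TcAMPKα. The dsEGFP group held 3 libraries from larvae of the same age and strain injected with the same amount of dsRNA for EGFP, a jellyfish-derived reporter gene with no counterpart in the beetle. Each library was made from 10 pooled, unsexed whole larvae collected 6 days after injection, so gut and epidermis were not separated, and fewer cells of a type cannot be told apart from less RNA per cell. Levels are FPKM, fragment counts divided by transcript length and by the size of the library, added up over the transcripts of a gene.

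The number of reads estimated from the deposited coverage was 33518139 to 37584930 per library. TcAMPKα, listed as Snf1a, was at 10.7, 7.32 and 16.3 FPKM in the dsTcAMPKα libraries, against 77.3, 74.9 and 56.9 FPKM in the dsEGFP libraries. Across 10981 genes with a mean of at least 1 FPKM, limma on log2(FPKM + 1) called 747 genes, 449 higher and 298 lower in dsTcAMPKα larvae, with 0.05 as the limit on the Benjamini-Hochberg adjusted p and 1 as that on the absolute log2 fold change. Over all tested genes the log2 fold change had a median of 0.20. Calls depended on single libraries, with 0 to 1198 genes called when 1 library was left out.

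Chitin is a polymer of N-acetylglucosamine that stiffens the cuticle outside the epidermis and the peritrophic matrix, a sheet that the midgut secretes around the food. The proteins of both structures hold the chitin through peritrophin-type chitin-binding domains. In the names of these beetle genes the digits of Pmp2, Pmp3, Pmp9 or Pmp14, and those of Cpap1 and Cpap3, count such domains. CPAP stands for cuticular proteins analogous to peritrophins, and the CPAP3 proteins are the beetle counterparts of the Obstructor proteins of Drosophila. CPR proteins carry another chitin-binding motif, the Rebers and Riddiford consensus.

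Of the 27 members, 24 had a mean of at least 1 FPKM and were tested, all 9 peritrophic and 15 of the 18 cuticular. A single member was called, Pmp14, which was higher in dsTcAMPKα larvae. That is 1 of 24, where 6.80% of all tested genes were called, 4.09% as higher and 2.71% as lower. The adjusted p alone was under 0.05 for 2 members, Pmp14 and the lower Pmp1-b, beside 16.5% of all tested genes. The FPKM of the 2 groups did not overlap for 6 members, 2 higher and 4 lower in dsTcAMPKα larvae, beside 44.8% of all tested genes (31.2% higher and 13.6% lower). These shares among the members were near or below those of all genes.

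**Figure D1:**
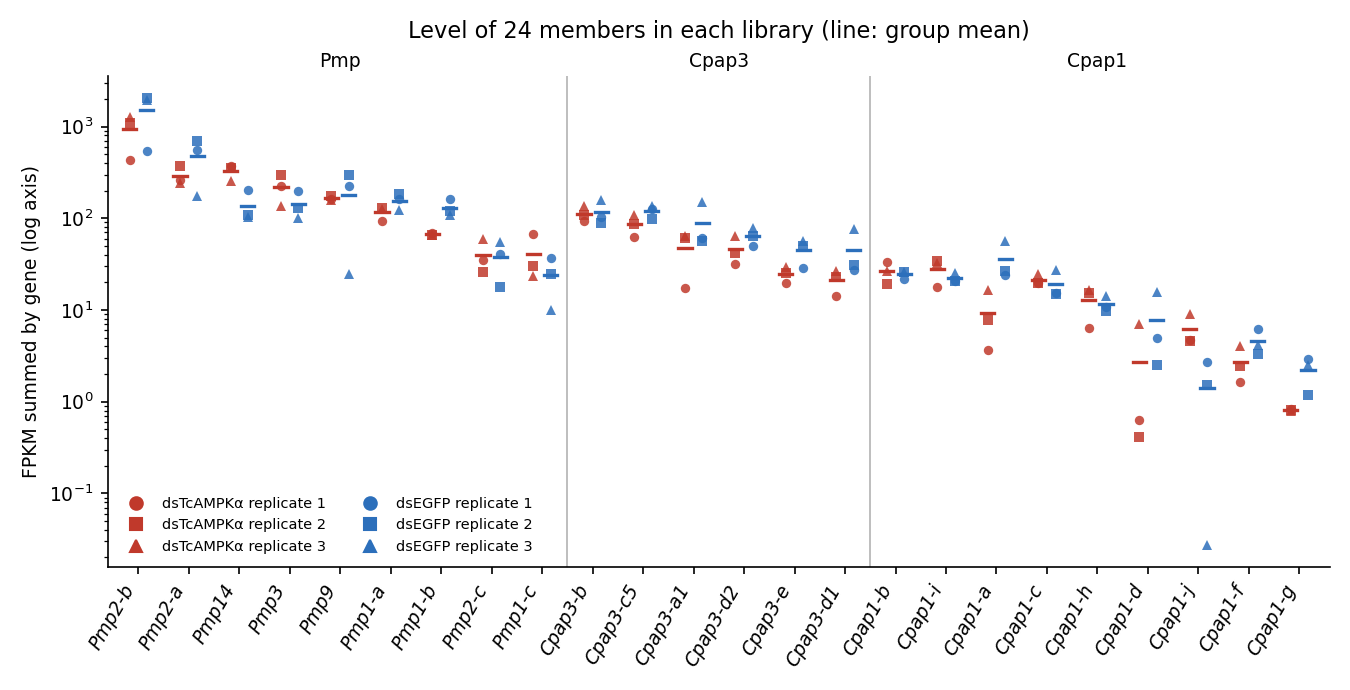
FPKM summed by gene on a log axis for the 24 tested members, ordered within Pmp, Cpap3 and Cpap1 by mean level, with dsTcAMPKα libraries left of dsEGFP libraries for each gene. Symbols mark the 3 libraries of a group and short lines the group means. The peritrophic genes reach 2045 FPKM (Pmp2-b), the Cpap3 genes 157 FPKM (Cpap3-b) and the Cpap1 genes 56.0 FPKM (Cpap1-a), and Pmp14 is higher in every dsTcAMPKα library than in any dsEGFP library.

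With all 6 libraries the median log2 fold changes of the 2 classes lay on opposite sides of 0, a description without a test. The median log2 fold change was 0.13 over the 9 peritrophic members, with 5 values above and 4 below 0, close to the 0.20 of all tested genes. It was −0.51 over the 15 cuticular members, with 5 values above and 10 below 0, where 3965 of all 10981 tested genes were below 0. Within the cuticular class the 9 tested Cpap1 genes had a median of 0.04, and the 6 tested Cpap3 genes had a median of −0.65 with every value below 0, although that of Cpap3-b turned positive under quantile normalization, TPM and the length correction, and without dsTcAMPKα replicate 1 or dsEGFP replicate 3. With all 6 libraries no Cpap3 gene reached a limma adjusted p under 0.05, and without dsEGFP replicate 1 Cpap3-e was called lower (log2 fold change −1.08, adjusted p = 0.0485). Without dsEGFP replicate 3 the peritrophic median was −0.30, while the cuticular median was −0.41. With median-ratio size factors the peritrophic median was −0.09, beside −0.01 for all tested genes.

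Pmp14 has the most chitin-binding domains of the peritrophic members by its name. It lies on sequence NC_007423.3 at 2436977 to 2441024 (build Tcas5.2, plus strand), 324 nt downstream of Pmp9. Its level was 373, 358 and 257 FPKM in the dsTcAMPKα libraries, against 202, 108 and 103 FPKM in the dsEGFP libraries. Every dsTcAMPKα library was above every dsEGFP library, and dsEGFP replicate 1 was well above the other dsEGFP libraries. The means were 329 ± 62.9 and 138 ± 55.7 FPKM (SD, n = 3 each), a ratio of 2.39. limma gave a log2 fold change of 1.30 (SE 0.30, 95% confidence interval 0.58 to 2.03, Benjamini-Hochberg adjusted p = 0.0368).

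As the deposited FPKM were divided, the rise of Pmp14 was not spread evenly over its 16 transcripts. The annotated transcript, which has 2 exons and 3990 nt, was at 85.2, 94.1 and 56.3 FPKM in dsTcAMPKα libraries, against 64.6, 39.6 and 88.0 FPKM in dsEGFP libraries. These ranges overlapped. An assembled transcript of 4048 nt has the same ends but a single exon, so that it keeps the 58 nt intron. Reads outside this intron fit both transcripts, so the division of FPKM between them is uncertain. The single-exon transcript was at 192, 160 and 126 FPKM in dsTcAMPKα libraries, against 98.1, 50.5 and 4.30 FPKM in dsEGFP libraries. In dsEGFP replicate 3 it held 4.18% of the gene's FPKM and the annotated transcript 85.5%, whereas in the other 5 libraries it held 44.6% to 51.5%.

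The remaining 14 transcripts of Pmp14 were assembled on the opposite strand, inside the gene. Together they reached 95.8, 104 and 75.3 FPKM in dsTcAMPKα libraries, against 39.2, 18.2 and 10.6 FPKM in dsEGFP libraries. Every dsTcAMPKα library was above every dsEGFP library. These transcripts are short, at 271 to 656 nt, and held a smaller part of the gene's estimated reads than of its FPKM. In dsTcAMPKα libraries they held 1872 of 45026, 1853 of 38788 and 1251 of 26494 reads. In dsEGFP libraries they held 726 of 25220, 321 of 13081 and 195 of 14286 reads. The library protocol describes no step that marks the strand, so reads of Pmp14 and of a partner on the opposite strand cannot be told apart. With sense transcripts only, the log2 fold change of Pmp14 was 1.07 (limma adjusted p = 0.0502), and with the annotated transcript only it was 0.33 (limma adjusted p = 0.542). The last value rests on the uncertain division between the annotated and the single-exon transcript.

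Counted without regard to transcript, the reads estimated from coverage were scaled to the same library total (RPM). Pmp14 was at 1198, 1101 and 790 RPM in dsTcAMPKα libraries, against 691, 380 and 382 RPM in dsEGFP libraries. The groups did not overlap on this scale either, and the ratio of the means was 2.13. limma-voom on the estimated reads gave a log2 fold change of 1.13 (adjusted p = 0.0501). After removal of a trend with transcript length, fitted in each library, the log2 fold change was 0.59 (limma adjusted p = 0.283).

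Pmp9, the neighbour of Pmp14 on the same strand, was at 162, 176 and 157 FPKM in dsTcAMPKα libraries, against 223, 295 and 24.5 FPKM in dsEGFP libraries. The dsTcAMPKα libraries were alike, and dsEGFP replicate 3 was far below all others. The log2 fold change was 0.47 with a confidence interval of −1.64 to 2.58 (limma adjusted p = 0.729). Without dsEGFP replicate 3 it was −0.64 (limma adjusted p = 0.0293), so this library set the sign.

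Pmp2-b was the most abundant member, at a percentile of 99.5 by mean FPKM among genes with a mean above 0. It was at 435, 1098 and 1279 FPKM in dsTcAMPKα libraries, against 535, 2045 and 1969 FPKM in dsEGFP libraries. Replicate 1 was the lowest in both groups, and the ranges overlapped. Pmp2-b had a log2 fold change of −0.61 (SE 0.64, 95% confidence interval −2.14 to 0.93, limma adjusted p = 0.527), which lay between −1.24 without dsEGFP replicate 1 and −0.12 without dsTcAMPKα replicate 1.

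In the 2 libraries with low Pmp2-b the FPKM stood on another transcript. An assembled transcript of 1870 nt, which begins upstream of the annotated one of 578 nt, held 93.4% of the gene's FPKM in dsTcAMPKα replicate 1 and 92.1% in dsEGFP replicate 1. It held at most 1.10% in the other 4 libraries. In reads estimated from coverage, which do not depend on that division, Pmp2-b was at 798, 664 and 778 RPM in dsTcAMPKα libraries, against 969, 1216 and 1183 RPM in dsEGFP libraries. On this scale every dsTcAMPKα library was below every dsEGFP library, with a ratio of the means of 0.665. limma-voom gave a log2 fold change of −0.59 for Pmp2-b (adjusted p = 0.062).

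**Figure D2:**
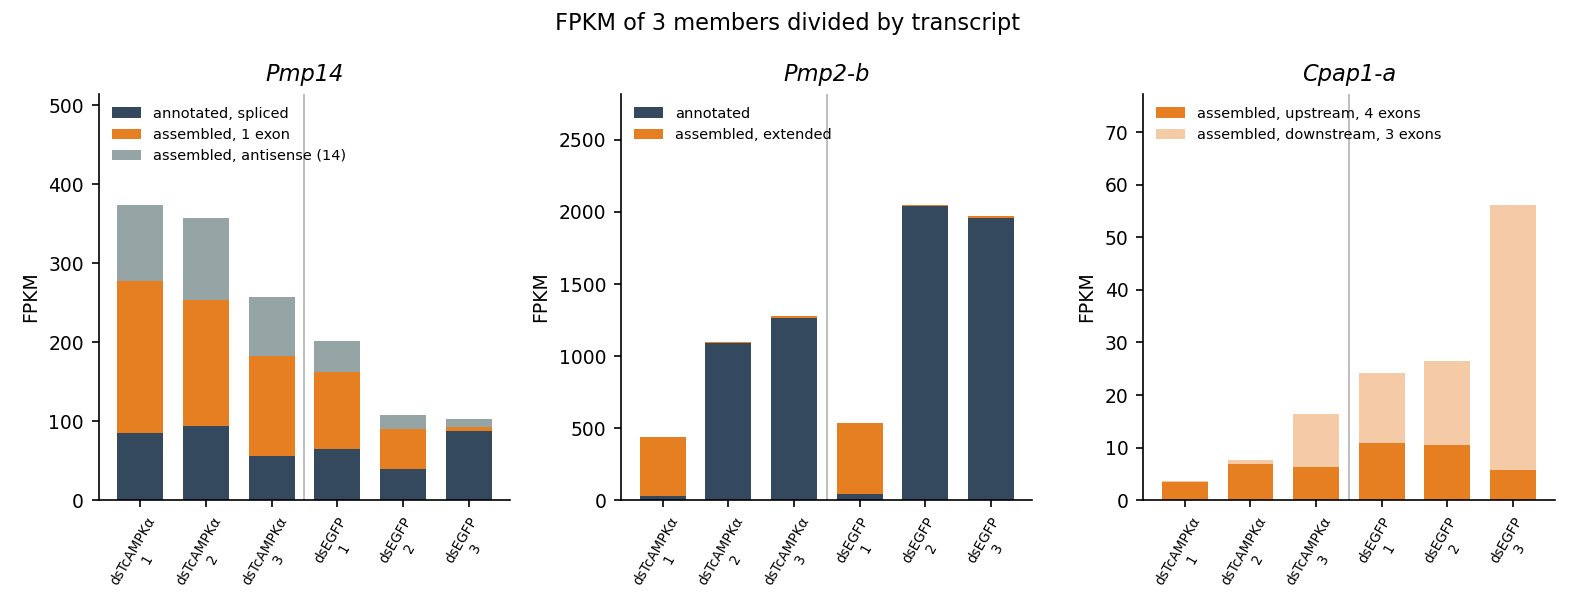
FPKM of Pmp14, Pmp2-b and Cpap1-a in each library, stacked by transcript, with the 3 dsTcAMPKα libraries left of the 3 dsEGFP libraries. The single-exon transcript of Pmp14 is nearly missing from dsEGFP replicate 3 (4.30 FPKM), the extended transcript of Pmp2-b carries the gene only in replicate 1 of each group, and the downstream transcript of Cpap1-a reaches 50.3 FPKM in dsEGFP replicate 3.

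Pmp2-a and Pmp1-a are the neighbours of Pmp2-b on NC_007418.3, and the 3 genes lie within 631693 to 636266. Pmp2-a was at 258, 373 and 244 FPKM in dsTcAMPKα libraries, against 549, 703 and 173 FPKM in dsEGFP libraries. The dsEGFP libraries both exceeded and fell short of the dsTcAMPKα range, with replicate 3 the lowest of all 6. The log2 fold change of Pmp2-a was −0.50 (95% confidence interval −1.76 to 0.75, limma adjusted p = 0.52), and −1.11 without dsEGFP replicate 3 (limma adjusted p = 0.0196). Pmp1-a was at 92.5, 130 and 127 FPKM in dsTcAMPKα libraries, against 162, 184 and 122 FPKM in dsEGFP libraries, and its ranges overlapped.

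Pmp1-b has a single annotated transcript of 671 nt on NC_007421.3, at 3525435 to 3526482. It was at 69.4, 65.5 and 65.3 FPKM in dsTcAMPKα libraries, against 161, 119 and 109 FPKM in dsEGFP libraries. All dsTcAMPKα libraries were below all dsEGFP libraries, and they lay within a narrow band. Its log2 fold change was −0.93 (SE 0.18, 95% confidence interval −1.36 to −0.50, limma adjusted p = 0.0277), which did not pass the limit of 1 on the fold change. It was −0.55 after the length correction (limma adjusted p = 0.24).

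Pmp2-c, Pmp3 and Pmp1-c lie together on NC_007422.5 at 2840964 to 2850857. Pmp3, whose depletion by RNA interference in this beetle is known to make the peritrophic matrix leaky, was at 223, 297 and 135 FPKM in dsTcAMPKα libraries, against 201, 130 and 101 FPKM in dsEGFP libraries. Pmp1-c was at 67.5, 30.0 and 23.7 FPKM in dsTcAMPKα libraries, against 37.2, 24.7 and 9.89 FPKM in dsEGFP libraries. Both genes were highest in replicate 1 or 2 of dsTcAMPKα and lowest in dsEGFP replicate 3, with ranges that overlapped (log2 fold changes of 0.58 and 0.77, limma adjusted p = 0.286 and 0.353). Pmp2-c was at 35.3, 25.7 and 58.8 FPKM in dsTcAMPKα libraries, against 40.6, 17.8 and 55.1 FPKM in dsEGFP libraries, with replicate 3 the highest and replicate 2 the lowest in both groups. Its log2 fold change was 0.13 (limma adjusted p = 0.86). Pmp1-c had the most transcripts of any member, 23, of which 20 were assembled and 8 were on the opposite strand. The 3 annotated transcripts of Pmp1-c held on average 4.36% of its FPKM in dsTcAMPKα libraries and 8.19% in dsEGFP libraries.

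**Figure D3:**
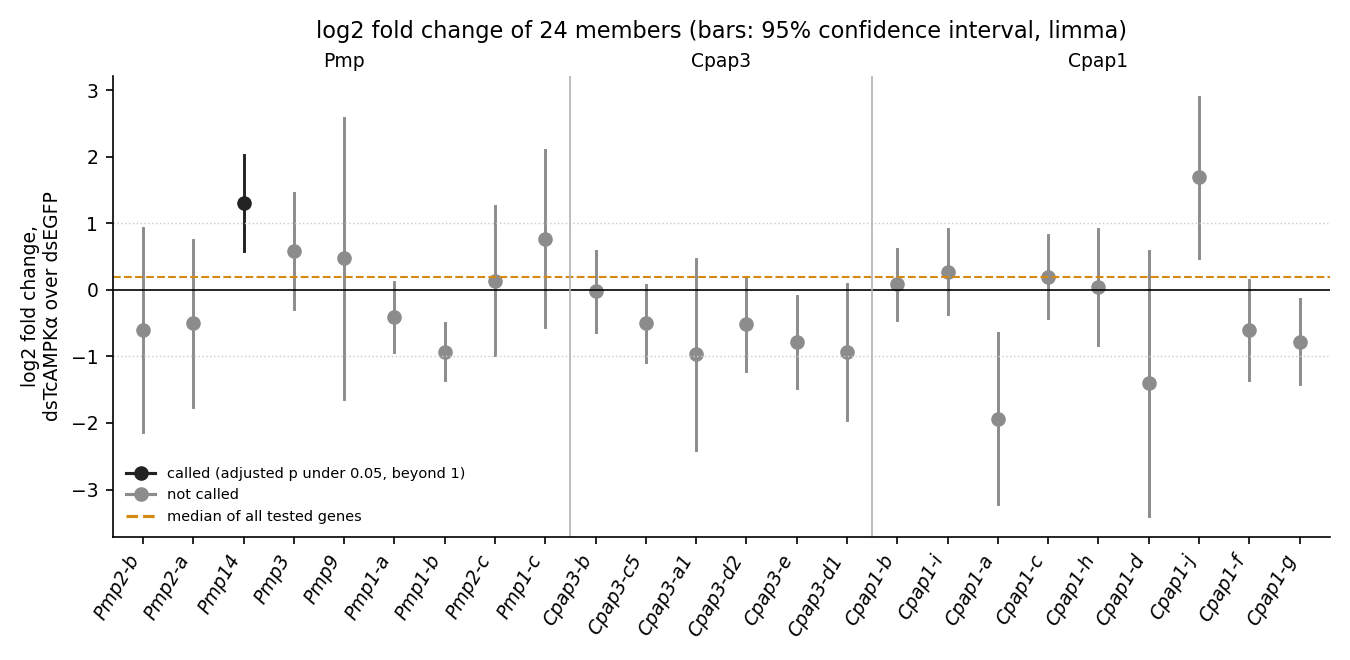
log2 fold change of each tested member, dsTcAMPKα over dsEGFP, with its 95% confidence interval from limma, and the median of all tested genes as a dashed line at 0.20. Pmp14 (1.30) is the only called member, and all 6 Cpap3 genes lie below 0, between −0.97 and −0.02 (Cpap3-b, whose sign turns under quantile normalization, TPM and the length correction, and without dsTcAMPKα replicate 1 or dsEGFP replicate 3).

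Within the cuticular class, as the name rule defines it, Cpap3 genes had the highest levels. Cpap3-b, the most abundant, lies on NC_007425.3 at 4038328 to 4043626. It was at 93.8, 108 and 136 FPKM in dsTcAMPKα libraries, against 103, 89.4 and 157 FPKM in dsEGFP libraries, and the ranges overlapped almost fully. Its log2 fold change was −0.02 with a confidence interval of −0.63 to 0.58 (limma adjusted p = 0.957). Among the settings tried it was positive in 5, at 0.24 or less.

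Cpap3-c5, on NC_007417.3 at 12217927 to 12223283, was at 62.6, 85.8 and 109 FPKM in dsTcAMPKα libraries, against 125, 99.0 and 136 FPKM in dsEGFP libraries. dsTcAMPKα replicate 3 lay above dsEGFP replicate 2, so the ranges overlapped. The log2 fold change of Cpap3-c5 was −0.50 (95% confidence interval −1.08 to 0.07, limma adjusted p = 0.178).

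Cpap3-a1, a neighbour of Cpap3-b at 4031093 to 4035088, was at 17.2, 60.9 and 63.5 FPKM in dsTcAMPKα libraries, against 61.1, 56.0 and 152 FPKM in dsEGFP libraries. The low dsTcAMPKα replicate 1 and the high dsEGFP replicate 3 stood apart, and the other 4 libraries lay between 56.0 and 63.5 FPKM. Its log2 fold change was −0.97 (SE 0.60, limma adjusted p = 0.284). It was −0.37 without dsTcAMPKα replicate 1 and −0.51 without dsEGFP replicate 3.

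Cpap3-d1 lies in the same cluster at 4017805 to 4021778. It was at 14.3, 22.9 and 26.6 FPKM in dsTcAMPKα libraries, against 27.5, 30.8 and 76.4 FPKM in dsEGFP libraries. It was the only Cpap3 gene whose groups did not overlap, by a margin of less than 1 FPKM (log2 fold change −0.93, limma adjusted p = 0.164). Cpap3-d2 was at 31.4, 41.7 and 64.3 FPKM in dsTcAMPKα libraries, against 49.9, 63.5 and 78.4 FPKM in dsEGFP libraries. Cpap3-e was at 19.6, 25.6 and 29.8 FPKM in dsTcAMPKα libraries, against 28.6, 49.6 and 56.7 FPKM in dsEGFP libraries. The ranges of Cpap3-d2 and Cpap3-e overlapped through dsTcAMPKα replicate 3, with log2 fold changes of −0.51 and −0.79 (limma adjusted p = 0.256 and 0.104). Cpap3-a2, in the cluster of Cpap3-a1, was below the filter with at most 1.46 FPKM in any library.

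Among the Cpap1 genes, Cpap1-a and Cpap1-j had the largest differences, in opposite directions. Cpap1-a, on NC_007416.3 at 4129156 to 4131916, was at 3.63, 7.68 and 16.4 FPKM in dsTcAMPKα libraries, against 24.1, 26.6 and 56.0 FPKM in dsEGFP libraries. The groups did not overlap, and replicate 3 was the highest in both. Its log2 fold change was −1.94 (SE 0.54, 95% confidence interval −3.22 to −0.66), with a limma adjusted p of 0.0541. In 5 of 20 alternatives Cpap1-a was called lower, with adjusted p values of 0.0428 to 0.0497, and limma-voom on the estimated reads, 1 of these, called Cpap1-a and not Pmp14.

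The annotated transcript of Cpap1-a was listed at 0 in all 6 libraries, and its FPKM came from 2 assembled transcripts that share the locus. The downstream one, with 3 exons, was at 0.15, 0.87 and 10.1 FPKM in dsTcAMPKα libraries, against 13.2, 16.1 and 50.3 FPKM in dsEGFP libraries. The upstream one, with 4 exons, was at 3.48, 6.81 and 6.40 FPKM in dsTcAMPKα libraries, against 10.9, 10.4 and 5.74 FPKM in dsEGFP libraries. The groups were apart for the downstream transcript, and overlapped for the upstream one through dsEGFP replicate 3.

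Cpap1-j, which is needed for normal cuticle in this beetle, was at 4.75, 4.57 and 9.06 FPKM in dsTcAMPKα libraries, against 2.73, 1.51 and 0.03 FPKM in dsEGFP libraries. The groups did not overlap, and the gene was almost undetected in dsEGFP replicate 3, where coverage gave about 4.5 reads. The log2 fold change was 1.69 (SE 0.51, 95% confidence interval 0.48 to 2.90, limma adjusted p = 0.0647), and 1.16 without that library (limma adjusted p = 0.0428). Its lowest library in the dsEGFP group was thus the one in which most other cuticular genes were highest.

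Cpap1-b, Cpap1-c, Cpap1-h and Cpap1-i differed little between groups, with log2 fold changes of 0.04 to 0.27 and limma adjusted p values of 0.495 to 0.942. Cpap1-b was at 33.6, 19.3 and 26.8 FPKM in dsTcAMPKα libraries, against 21.8, 26.0 and 25.9 FPKM in dsEGFP libraries. Cpap1-c was at 19.5, 19.7 and 24.7 FPKM in dsTcAMPKα libraries, against 15.2, 14.8 and 27.1 FPKM in dsEGFP libraries. Both genes overlapped between groups. Cpap1-i was at 17.6, 34.0 and 32.4 FPKM in dsTcAMPKα libraries, against 20.8, 20.5 and 25.3 FPKM in dsEGFP libraries. Cpap1-h was at 6.32, 15.4 and 16.6 FPKM in dsTcAMPKα libraries, against 10.7, 9.75 and 14.3 FPKM in dsEGFP libraries. In Cpap1-h and Cpap1-i the lowest of all 6 values was dsTcAMPKα replicate 1. The widest of the confidence intervals in this group, that of Cpap1-h, ran from −0.82 to 0.91, so changes of up to that size were within the error.

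The other Cpap1 genes were scarce. Cpap1-d was at 0.64, 0.41 and 7.12 FPKM in dsTcAMPKα libraries, against 4.95, 2.50 and 15.7 FPKM in dsEGFP libraries. Replicate 3 of each group held most of its signal, and coverage gave 5.6 to 227 reads per library. Cpap1-g was at 0.82, 0.81 and 0.79 FPKM in dsTcAMPKα libraries, against 2.92, 1.18 and 2.52 FPKM in dsEGFP libraries, without overlap (log2 fold change −0.78, limma adjusted p = 0.087). Cpap1-f was at 1.65, 2.42 and 4.04 FPKM in dsTcAMPKα libraries, against 6.24, 3.32 and 4.15 FPKM in dsEGFP libraries, with overlap. Below the filter, Cpap1-e reached 3.30 FPKM in dsEGFP replicate 3 and at most 0.55 FPKM elsewhere. CPR18 was listed at 0 in 5 libraries and at 0.23 FPKM in dsEGFP replicate 3.

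The members also varied between libraries of 1 group, and the 2 classes varied in opposite directions in replicate 3. Within the dsTcAMPKα group, replicate 3 was the highest library for 12 of 15 cuticular genes, including 6 of 6 Cpap3 genes, and the lowest for 6 of 9 peritrophic genes. Within the dsEGFP group, replicate 3 was the highest for 11 of 15 cuticular genes, again including 6 of 6 Cpap3 genes, and the lowest for 7 of 9 peritrophic genes. Over all tested genes, dsTcAMPKα replicate 3 was the highest of its group in 30.6% and the lowest in 39.2%, and dsEGFP replicate 3 was the highest in 48.6% and the lowest in 37.6%. Replicate 1 of dsTcAMPKα was the lowest library for 11 of 15 cuticular genes and for 6 of 6 Cpap3 genes, against 30.2% of all tested genes. Replicate numbers were given in the order of the samples, and nothing in the labels ties a number in 1 group to the same number in the other.

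**Figure D4:**
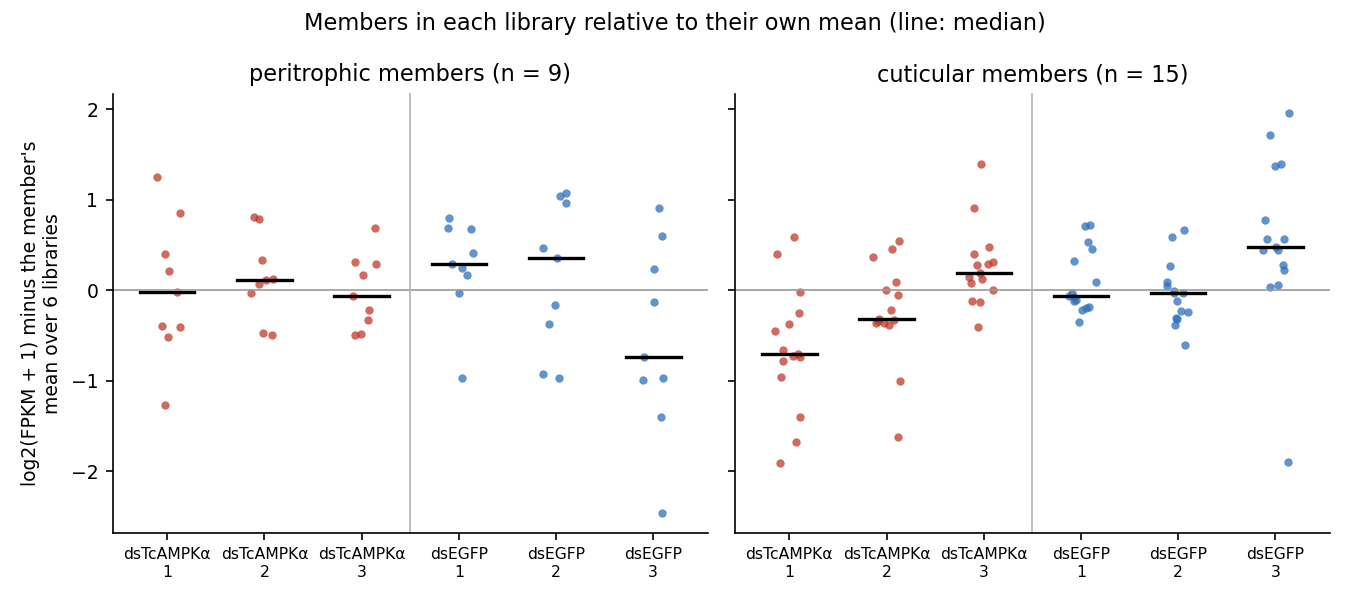
log2(FPKM + 1) of each tested member in each library, minus that member's mean over the 6 libraries, for 9 peritrophic members on the left and 15 cuticular members on the right. Black lines are medians. The median of the cuticular members is −0.71, −0.32 and 0.19 in the dsTcAMPKα libraries and −0.07, −0.03 and 0.48 in the dsEGFP libraries, and that of the peritrophic members is lowest in dsEGFP replicate 3, at −0.74.

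Summed over each class, the peritrophic genes reached 1717, 2551 and 2346 FPKM in dsTcAMPKα libraries, against 2112, 3626 and 2666 FPKM in dsEGFP libraries. The cuticular genes reached 328, 450 and 568 FPKM in dsTcAMPKα libraries, against 506, 495 and 832 FPKM in dsEGFP libraries. Both sums overlapped between groups. The ratio of the peritrophic to the cuticular sum was 5.24, 5.67 and 4.13 in dsTcAMPKα libraries, against 4.17, 7.32 and 3.20 in dsEGFP libraries, with means of 5.01 ± 0.79 and 4.90 ± 2.15 (SD, n = 3 each). Replicate 3 had the lowest ratio in both groups, and the difference between the means was small beside the spread. Pmp2-b alone made up 25.4% to 54.5% of the peritrophic sum in dsTcAMPKα libraries and 25.3% to 73.9% in dsEGFP libraries. In estimated reads, where its division over transcripts has no part, the ratio was 8.37, 5.74 and 3.78 in dsTcAMPKα libraries, against 5.64, 5.92 and 2.65 in dsEGFP libraries.

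Other genes of chitin metabolism gave no calls. None of 28 genes of a chitin enzyme list (synthases, deacetylases, chitinases with the related imaginal disc growth factors, and hexosaminidases) was called, beside 6.80% of all tested genes. Their log2 fold changes had a median of −0.05 and ran from −3.84 (Cht5) to 0.83 (Idgf4). An unadjusted p under 0.05 was found for 3 of 28, where 4003 of all 10981 tested genes were. Chs2, the chitin synthase of the midgut, was at 41.3, 51.0 and 51.4 FPKM in dsTcAMPKα libraries, against 39.7, 35.1 and 18.5 FPKM in dsEGFP libraries (log2 fold change 0.67, limma adjusted p = 0.152). Chs1, the chitin synthase of the cuticle, was at 1.12, 4.24 and 7.16 FPKM in dsTcAMPKα libraries, against 8.77, 6.27 and 4.76 FPKM in dsEGFP libraries (log2 fold change −0.72, limma adjusted p = 0.331). Chs2 was lowest in dsEGFP replicate 3, as were most peritrophic genes, and did not overlap between groups, whereas Chs1 overlapped. Of the 28 genes, 3 were higher and 1 was lower without overlap, beside 31.2% and 13.6% of all tested genes. The higher ones were Chs2, Cda8 and Cda1, the last listed below as epidermal, and the lower one was Cht5.

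Markers of the gut and epidermis were summed by library as well. The 5 midgut chitin genes (Chs2 and the deacetylases Cda6 to Cda9) summed to 1145, 1164 and 1231 FPKM in dsTcAMPKα libraries, against 1050, 1111 and 941 FPKM in dsEGFP libraries. The sum was lowest in dsEGFP replicate 3 and highest in dsTcAMPKα replicate 3. By gene, Chs2, Cda6, Cda7 and Cda8 were the lowest of the dsEGFP group in replicate 3. Cda9, the most abundant, was not, at 442, 506 and 461 FPKM in dsEGFP libraries. The 6 epidermal chitin genes (Chs1, Cda1, Cda2, Cht5, Cht7 and Cht10) summed to 236, 289 and 397 FPKM in dsTcAMPKα libraries, against 366, 268 and 402 FPKM in dsEGFP libraries, with replicate 3 the highest in both groups. By gene they did not move together in dsEGFP replicate 3. Cda1 (187 FPKM) and Cda2 (65.6 FPKM) were the highest of the dsEGFP group there. Chs1 (4.76 FPKM) and Cht10 (12.1 FPKM) were the lowest, and Cht5 and Cht7 were neither. No midgut gene was at 0 in any library, and of the epidermal genes Cht5, a moulting chitinase, was listed at 0 in dsTcAMPKα replicate 1. Their part in the values of the members was not tested.

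A list of 12 insect cuticle protein genes that share an annotation term summed to 59.2, 68.0 and 459 FPKM in dsTcAMPKα libraries, against 182, 258 and 1265 FPKM in dsEGFP libraries. These genes are not in the cuticular class. LOC103315173 alone was at 0.13, 0.09 and 192 FPKM in dsTcAMPKα libraries, against 21.3, 39.8 and 768 FPKM in dsEGFP libraries. The sum was highest in replicate 3 of both groups, and by gene this library was the highest for 10 of 11 tested genes in the dsTcAMPKα group and for 7 of 11 in the dsEGFP group, where it was the lowest for 3. Of 11 tested genes of this list 9 had a log2 fold change below 0, where 3965 of all 10981 tested genes did. That of LOC103315173 was −3.84 with a confidence interval of −9.35 to 1.66. A single gene was called, LOC662608, at 6.90, 8.53 and 9.50 FPKM in dsTcAMPKα libraries, against 19.1, 37.1 and 34.3 FPKM in dsEGFP libraries. Its groups did not overlap (log2 fold change −1.70, SE 0.28, limma adjusted p = 0.0233), beside 6.80% of all tested genes called and 44.8% without overlap. None of 5 ecdysone response genes and none of 6 tested genes of cuticle tanning was called by limma. An unadjusted p under 0.05 was found for 0 and 2 of them, where 4003 of all 10981 tested genes had one. The 2 were Th (log2 fold change 2.32, limma adjusted p = 0.076) and Ddc (1.28, limma adjusted p = 0.090), both higher in dsTcAMPKα larvae. Of the 6 tanning genes 3 had a log2 fold change above 0 and 3 below.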

How the data were processed

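RNA was extracted from pools of whole larvae and, per the labels, enriched with oligo(dT) beads. Clean reads were aligned to Tcas5.2 with HISAT2 per the methods of the study. The submitters' processing notes name HISAT2, StringTie, Bowtie2 and TopHat2, with versions not given in the sources used here, and the tables have the form that StringTie writes. The authors deposited, for each of 31944 transcripts, FPKM, which are divided by transcript length and library total. They also deposited coverage, a signal in reads per base with no scaling to library size. FPKM were added up by gene name, or by locus for 783 genes with no name. Reads were estimated as coverage times transcript length over 150 nt. No counting error belongs to such estimates, and precision is given as the spread between 3 libraries per group. Each table held 1 sample. Whether similar members share reads was not tested.

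Genes with a mean of at least 1 FPKM were compared by limma 3.58.1 under R 4.3.3 (lmFit, eBayes with a variance trend) after transformation to log2(FPKM + 1), and p values were adjusted by Benjamini-Hochberg over all 10981 tested genes. Fold changes are on this scale, which understates those of low genes. Python 3.11.15 was used for sums and plots. The script was tested on simulated data. Alternatives changed the pseudocount, filter, scaling, test, transcripts, thresholds and libraries. For the length correction, a lowess trend (span 0.4) on log2 transcript length was subtracted in each library. The members and lists were chosen with earlier results of these data known. Values in every library were due for called members, the 3 most abundant of each class and members whose call changed under the length correction. Those of the other members were added after their values had been seen, as were the transcript splits, the settings limited to sense or annotated transcripts, the ratio in estimated reads and the replicate block.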

Additional observations from a re-analysis of the deposited data

How the results depend on the processing

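The number of genes called across the table was 747, and 406 with a pseudocount of 5, 449 without a filter, 1619 with TPM (1400 higher, 219 lower), 121 after the length correction, 491 with the most abundant transcript only, 454 with annotated transcripts only and 0 to 1198 with 1 library left out. Median-ratio size factors gave 163 higher and 448 lower calls, and quantile normalization 234 and 322, against 449 and 298. The median log2 fold change of all genes was 0.44 with TPM, 0.06 with quantile normalization and −0.01 with median-ratio size factors, against 0.20.

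The members called were 1. They were 2 with a pseudocount of 5, a filter at a mean FPKM of 5, median-ratio size factors (both lower, Pmp1-b and Cpap1-a), quantile normalization, TPM or the adjusted p alone, and 6 by groups that do not overlap. They were 0 without a filter, after the length correction, or with the most abundant, sense or annotated transcripts only, and 0 to 4 with 1 library left out. Pmp14 was called without dsEGFP replicate 1 or 3, and not without dsEGFP replicate 2 or any dsTcAMPKα library (log2 fold changes 1.13 to 1.61). Without dsEGFP replicate 1 the 2 called were Pmp14 and Cpap3-e. The 4 members called without dsEGFP replicate 3 were Pmp14, Pmp1-b, Pmp2-a and Cpap1-j, where 10.9% of all tested genes were called.

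The peritrophic median lay between −0.30 and 0.33, and the cuticular median between −0.77 and −0.30, with 1 library left out. The cuticular median was −0.25 with TPM, still below that of all genes. The log2 difference of the peritrophic to cuticular ratio was 0.11, 0.62 without the most abundant member of each class, and −0.15 to 0.44 with 1 library left out.

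Of the 24 tested members 15 kept their sign in every alternative, and Cpap1-a did except with annotated transcripts only, where it was 0. The sign turned with median-ratio size factors for Cpap1-b (−0.14), Cpap1-c (−0.022), Cpap1-h (−0.17) and Pmp2-c (−0.092), and with quantile normalization for Cpap1-b (−0.079), Cpap1-h (−0.18) and Cpap3-b (0.046). It turned with TPM for Cpap3-b (0.24), with the most abundant transcript for Cpap1-h (−0.017), and with the length correction for Cpap1-h (−0.44), Cpap1-i (−0.20), Cpap3-b (0.13) and Pmp2-a (0.011). With 1 library left out the range was −0.10 to 0.28 for Cpap1-b, −0.18 to 0.45 for Cpap1-h, −0.19 to 0.21 for Cpap3-b, −0.32 to 0.47 for Pmp2-c and −0.64 to 1.13 for Pmp9. The cause was not tested for these.

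A replicate block with the numbers of the study's sample table called 13 genes and 0 members. Deviations from the group means correlated at −0.09, 0.24 and 0.09 (r, across genes) between samples of the same number. dsTcAMPKα replicates 2 and 3 correlated best with the dsEGFP sample of their own number. dsTcAMPKα replicate 1 correlated best with dsEGFP replicate 3 (0.13). With 3 libraries per group these weak correlations cannot decide whether samples of the same number share more than that number, which was not tested. Precision was low for scarce members, with fewer than 10 estimated reads in at least 1 library for Cpap1-d, Cpap1-e, Cpap1-j, Cpap3-a2 and CPR18.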
